A study of Homo sapiens with 18 samples.

Results

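Binding of MYC was examined near 10 genes of basal mammary epithelial identity: KRT5, KRT14, KRT18, CDH1, CDH3, TP63, LAMB3, ITGB4, ITGA6 and EGFR. They were chosen by name, and TP63 was read at 2 start sites, which gave 11 start sites for 10 genes. A peak was counted where it reached within 20 kb of a start site (hg19), and called a promoter peak where it reached within 2 kb. This gave 112 of the 150870 peaks listed in the 9 libraries. Peaks that overlapped between libraries were merged into regions, of which 40 of 43222 lay in these windows, 22 at promoters and 18 outside them. The cells were MCF10A, an immortalised, non-tumour breast epithelial line, carrying ectopic MYC (pBABE-hygro-MYC) and the mutant kinase PI3KH1047R in every group. Every group also received doxycycline at 2 µg/mL for 72 h, which induced hairpin shG9a_1, hairpin shG9a_4 or the scramble hairpin shSCR from pLKO-tetON-puro. G9a is a histone H3 lysine 9 methyltransferase, and the hairpins against it are named here after the plasmid labels. MYC was immunoprecipitated with antibody N262 from 3 biological replicates per hairpin. The 9 matched input libraries had no list of their own here. The knockdown of G9a and the RNA of the genes were not measured in these files, and a peak near a gene does not give its expression.

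Basal cells of the mammary epithelium sit on the basement membrane. They pair keratin 5 with keratin 14, express p63 and P-cadherin, and attach through integrin α6β4 to laminin-332 in hemidesmosomes. KRT18 is a keratin of luminal cells, where it pairs with KRT8, and CDH1 encodes E-cadherin, which holds epithelial cells of both layers together. EGFR, the epidermal growth factor receptor, drives growth of MCF10A cells, whose medium holds its ligand. MYC binds DNA with its partner MAX, best at the palindromic E-box CACGTG, and is found at many active promoters.

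Promoter sequences were available for 5 of the 10 genes, namely EGFR, ITGA6, KRT5, LAMB3 and TP63, with 9 promoters in all. Each runs from 250 bases before to 50 bases after the start of a transcript in RefSeq (GRCh38.p14). The E-box and 3 variants of it were searched on both strands. Of 35097 promoters of the same length, 7.25% held CACGTG, which is the E-box itself. The variant CACGCG was present in 11.4%, while CATGTG was found in 11.1% and the variant CACGAG in 6.77%. The first ITGA6 promoter held CACGTG 101 bases before its start, and the second EGFR promoter held CATGTG 236 bases before its start. The other 7 promoters held none of the 4 motifs, which says only that these letters are not in these windows. The 3 promoters below belong to genes that had promoter peaks with shG9a_4 and shSCR and none with shG9a_1. They were not matched base for base to the hg19 start sites used for the peaks. Capitals mark CACGTG, and a sequence with no capitals held none of the 4 motifs. The ITGA6 promoter lies on the plus strand at chr2:172427086-172427385, that of EGFR on the plus strand at chr7:55018767-55019066, and that of LAMB3 on the minus strand at chr1:209652376-209652675. Their GC contents were 53.0%, 75.3% and 61.3%, against a median of 58.7% over all promoters.
ITGA6: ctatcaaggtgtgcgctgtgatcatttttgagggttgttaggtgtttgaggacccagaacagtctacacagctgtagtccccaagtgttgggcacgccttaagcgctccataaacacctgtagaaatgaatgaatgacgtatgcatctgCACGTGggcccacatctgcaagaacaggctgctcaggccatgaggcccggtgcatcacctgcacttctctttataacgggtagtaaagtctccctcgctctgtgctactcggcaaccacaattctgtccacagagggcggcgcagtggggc
EGFR: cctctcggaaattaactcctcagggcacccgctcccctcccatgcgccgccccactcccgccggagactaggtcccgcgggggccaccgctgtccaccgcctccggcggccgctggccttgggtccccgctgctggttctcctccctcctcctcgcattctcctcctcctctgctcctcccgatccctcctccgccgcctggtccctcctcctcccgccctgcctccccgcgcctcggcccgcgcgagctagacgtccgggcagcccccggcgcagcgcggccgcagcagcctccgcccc
LAMB3: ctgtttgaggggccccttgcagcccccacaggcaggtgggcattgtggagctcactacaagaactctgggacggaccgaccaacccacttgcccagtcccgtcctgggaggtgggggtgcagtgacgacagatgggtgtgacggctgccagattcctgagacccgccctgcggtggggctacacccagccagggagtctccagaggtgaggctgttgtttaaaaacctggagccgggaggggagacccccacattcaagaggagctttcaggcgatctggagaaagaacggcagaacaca

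Peaks near the 11 start sites were fewest with shG9a_1, more numerous with shG9a_4 and most numerous with shSCR. Their number was 0, 5 and 4 in the shG9a_1 libraries (replicates 1, 2 and 3), 8, 15 and 8 in the shG9a_4 libraries, and 24, 33 and 15 in the shSCR libraries. The highest shG9a_4 library equalled the lowest shSCR library. The mean lengths of the lists stood in the same order. They held 113, 11462 and 13068 peaks with shG9a_1, 11168, 17454 and 12922 with shG9a_4, and 29827, 34738 and 20118 with shSCR. Per 1000 listed peaks, the genes' windows took 0, 0.436 and 0.306 with shG9a_1, 0.716, 0.859 and 0.619 with shG9a_4, and 0.805, 0.950 and 0.746 with shSCR. On that scale the shG9a_4 and shSCR ranges overlapped, and the shG9a_1 libraries lay below both. Start sites with a promoter peak numbered 0, 3 and 1 of 11 with shG9a_1, 5, 7 and 4 with shG9a_4, and 8, 8 and 5 with shSCR. The mean was 3.33 ± 2.58 (SD, n = 6) over the libraries of both G9a hairpins and 7 ± 1.73 (SD, n = 3) with shSCR. The groups overlapped, since shG9a_4 replicates 1 and 2 reached the count of shSCR replicate 3. With lists of equal length, the top 11168 peaks of each library without shG9a_1 replicate 1, the difference in promoters called was -0.2, against -3.67 in the full lists.

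**Figure D1:**
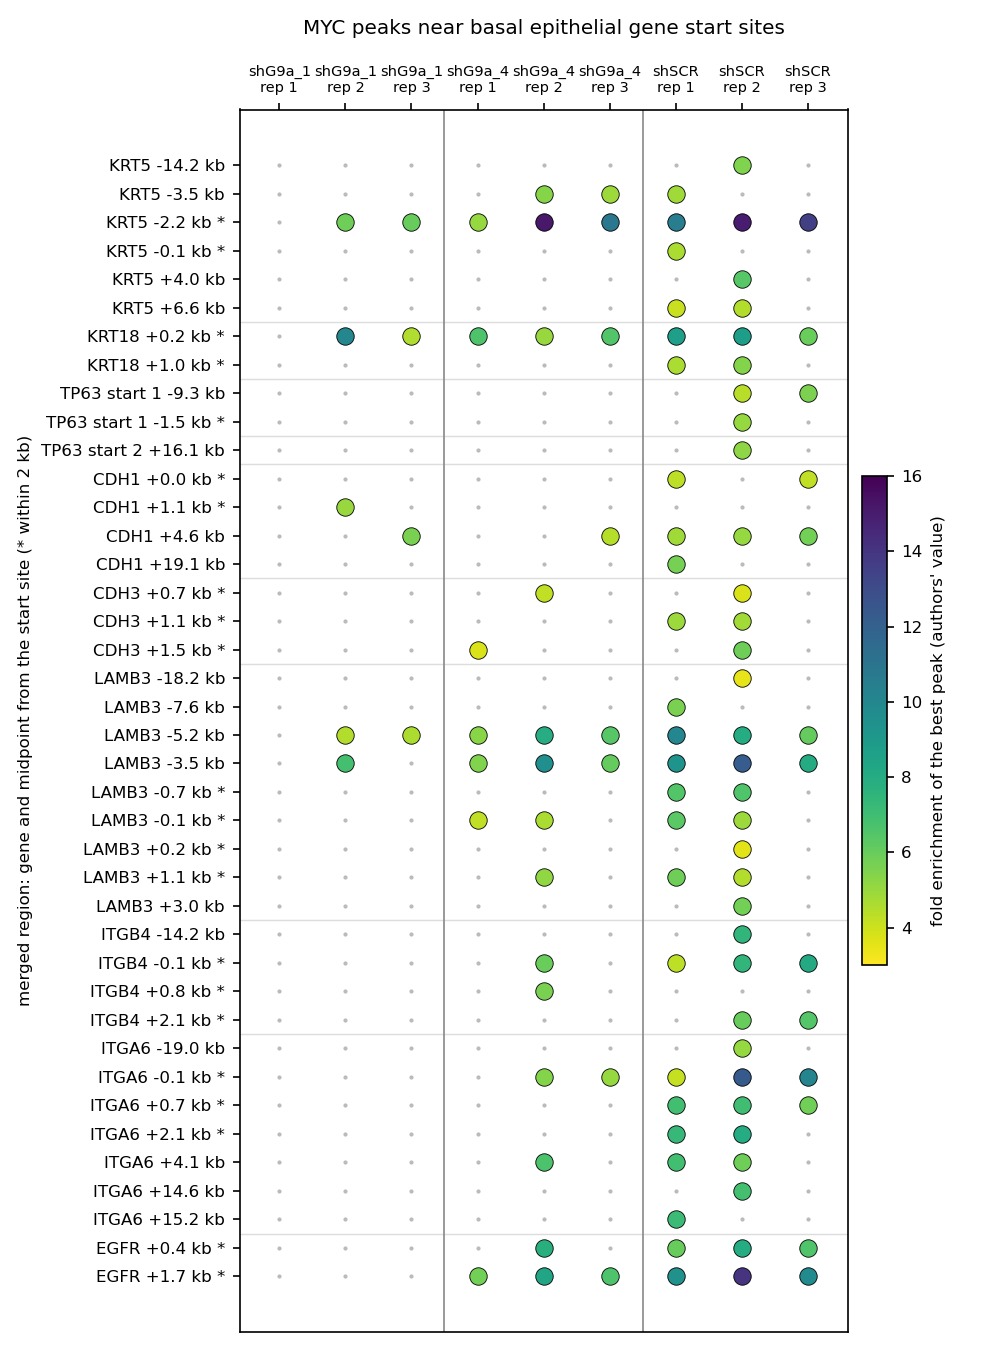
The 40 merged regions (rows, by gene and distance in kb) against the 9 libraries (columns, shG9a_1, then shG9a_4, then shSCR); a point marks a call, coloured by the fold enrichment of its best peak, and a star marks a region within 2 kb of the start. shG9a_1 replicate 1 had no call in any row, and KRT14 has no row because no library had a peak in its window.

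Among the keratins, KRT5 had a strong upstream peak in 8 of 9 libraries, KRT18 had a weaker one at its start, and KRT14 had none. The fold values below are the authors' own enrichment over background for the best peak of a region. The KRT5 region lay 1939 to 2534 bp upstream of the start, at 52916182 to 52916777 of chromosome 12. Its fold was 5.85 and 6.04 in shG9a_1 replicates 2 and 3, then 5.08, 15.1 and 10.8 with shG9a_4, and 10.6, 15.02 and 13.6 with shSCR. The shG9a_1 values were both below the lowest shSCR value, while the highest value of all was in an shG9a_4 library. The region ranked 6066 and 5798 in the shG9a_1 lists that held it, 5057, 1370 and 1916 in the shG9a_4 lists, and 4333, 3246 and 2577 in the shSCR lists, by q-value within lists of different length. It was the strongest of the genes' 10 regions called in all shSCR libraries, at a mean percentile of 87.8 in the shSCR lists. It sits on the border of the 2 kb promoter. The near edge of its peak lay 2021 bp upstream in shG9a_1 replicate 3 and 2008 bp upstream in shSCR replicate 3, so that these peaks did not count as promoter peaks, and between 1939 and 1998 bp upstream in the other 6 libraries. Over the KRT5 start itself, shSCR replicate 1 alone of the 9 libraries had a peak, with a fold of 4.63.

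KRT18 was called at its start, from 50 bp upstream to 444 bp downstream (chromosome 12, 53342605 to 53343099), in every library other than shG9a_1 replicate 1. Its fold was 9.97 and 4.53 in shG9a_1 replicates 2 and 3, 6.63, 5.01 and 6.52 with shG9a_4, and 8.77, 8.80 and 5.99 with shSCR. The groups overlapped, and an shG9a_1 library held the highest value. A peak 1.0 kb downstream of the KRT18 start had a fold of 4.63 and 5.43 in shSCR replicates 1 and 2, and no other call. KRT18 shares its locus with the overlapping gene KRT8, and a peak there cannot be assigned to either. For KRT14, whose product pairs with keratin 5, the nearest regions lay outside the window, 25.8 kb upstream and 37.7 kb downstream, each called in 2 shSCR libraries and no other. KRT5 and KRT14 thus differed in whether a peak was listed within 20 kb, in every group.

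TP63, which encodes p63, the transcription factor that maintains basal cells, had no peak in any shG9a library at either start site. Its start 1 had a peak 9.3 kb upstream with a fold of 4.41 and 5.56 in shSCR replicates 2 and 3. A promoter peak 1.5 kb upstream had a fold of 5.05 in shSCR replicate 2. Start 2 had 1 peak, 16.1 kb downstream, with a fold of 5.19 in shSCR replicate 2. None of these regions was called in all shSCR libraries, so TP63 had no reproducible MYC peak in these windows in any group.

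The cadherin genes, which are neighbours on chromosome 16, had weak and irregular peaks. CDH3, which encodes P-cadherin, had 3 promoter regions, 0.7, 1.1 and 1.5 kb downstream of the start. The first had a fold of 4.24 in shG9a_4 replicate 2 and 3.72 in shSCR replicate 2. The region at 1.1 kb had 4.93 and 4.81 in shSCR replicates 1 and 2, and that at 1.5 kb had 3.75 in shG9a_4 replicate 1 and 5.87 in shSCR replicate 2. No CDH3 region was called in all libraries of a group. The CDH1 start had a peak in shSCR replicates 1 and 3 with folds of 4.28 and 4.26, and a region 1.1 kb downstream was called in shG9a_1 replicate 2 alone, at 4.98. The CDH1 region that all shSCR libraries shared lay 4.6 kb downstream of the start, and its fold was 5.61 in shG9a_1 replicate 3, 4.43 in shG9a_4 replicate 3, and 4.87, 5.05 and 5.77 with shSCR. Where it was called, its values overlapped between groups, and it was the weakest of the 10 shared regions, at a mean percentile of 19.9 in the shSCR lists. When all regions shared by the shSCR libraries were cut into 10 equal classes of strength, it fell in the weakest, of which 39.6% were called in no shG9a library.

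LAMB3, which encodes the β3 chain of laminin-332, had the most regions of any of the genes, 9 in its window. A pair of them upstream of the start was called in all shSCR libraries. The region 3.5 kb upstream (chromosome 1, 209829152 to 209829560) had a fold of 6.90 in shG9a_1 replicate 2, of 5.46, 9.56 and 6.07 with shG9a_4, and of 9.29, 12.2 and 8.06 with shSCR. The region 5.2 kb upstream (209830494 to 209831501) had 4.50 and 4.58 in shG9a_1 replicates 2 and 3, 5.29, 7.89 and 6.45 with shG9a_4, and 10.0, 8.02 and 6.08 with shSCR. At both, the shG9a_1 values lay below every shSCR value and the shG9a_4 values overlapped them. The region 5.2 kb upstream, however, joins peaks at different positions, listed apart in shG9a_4 replicates 1 and 2 and shSCR replicate 3. Its values in shG9a_4 replicate 1 and shSCR replicate 2 come from summits nearer the start than in the other libraries. The farther peak of shG9a_4 replicate 1 had a fold of 2.94. The values therefore do not compare a single site. As a merged region, that 5.2 kb upstream was called in all libraries other than shG9a_1 replicate 1. Peaks within 2 kb of the LAMB3 start were called in no shG9a_1 library. The region over the start, from 203 bp upstream to 35 bp downstream, had 4.24 and 4.63 in shG9a_4 replicates 1 and 2 and 6.35 and 4.92 in shSCR replicates 1 and 2. That 0.7 kb upstream had 6.53 and 6.58 in shSCR replicates 1 and 2. The region 1.1 kb downstream had 5.18 in shG9a_4 replicate 2, and 5.88 and 4.51 in shSCR replicates 1 and 2. Another promoter region, 0.2 kb downstream, had 3.61 in shSCR replicate 2 alone. shSCR replicate 3, which had the shortest shSCR list, held none of these promoter peaks.

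The integrin genes had peaks at their starts in all shSCR libraries and in no shG9a_1 library. ITGA6, which encodes the α6 subunit, had a region over its start (chromosome 2, 173291848 to 173292634) with a fold of 5.43 and 5.06 in shG9a_4 replicates 2 and 3, and 4.12, 12.4 and 10.1 with shSCR. The groups overlapped through shSCR replicate 1, the lowest of all. A neighbouring region, 527 to 898 bp downstream of the start, had 6.95, 7.01 and 5.83 with shSCR and was called in no shG9a library. It was the only one of the genes' 10 shared regions in that state. A region 2.1 kb downstream that reached into the promoter had 7.30 and 7.99 in shSCR replicates 1 and 2, and no other call. ITGB4, which encodes the β4 subunit, had a region over its start (chromosome 17, 73717153 to 73717739) with a fold of 5.97 in shG9a_4 replicate 2, and 4.27, 7.51 and 8.11 with shSCR. The shG9a_4 value lay inside the shSCR range, but the region joins peaks at different positions. The shG9a_4 peak ended 31 bp downstream of the start, short of the shSCR replicate 1 peak at 80 to 223 bp downstream. It was below the values of shSCR replicates 2 and 3, whose peaks overlapped it. Of the other ITGB4 promoter regions, that 0.8 kb downstream had 5.62 in shG9a_4 replicate 2 alone. That 2.1 kb downstream had 6.01 and 6.48 in shSCR replicates 2 and 3. GALK1 overlaps ITGB4 and SAP30BP precedes it, and the distance of these peaks from either gene was not measured.

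**Figure D2:**
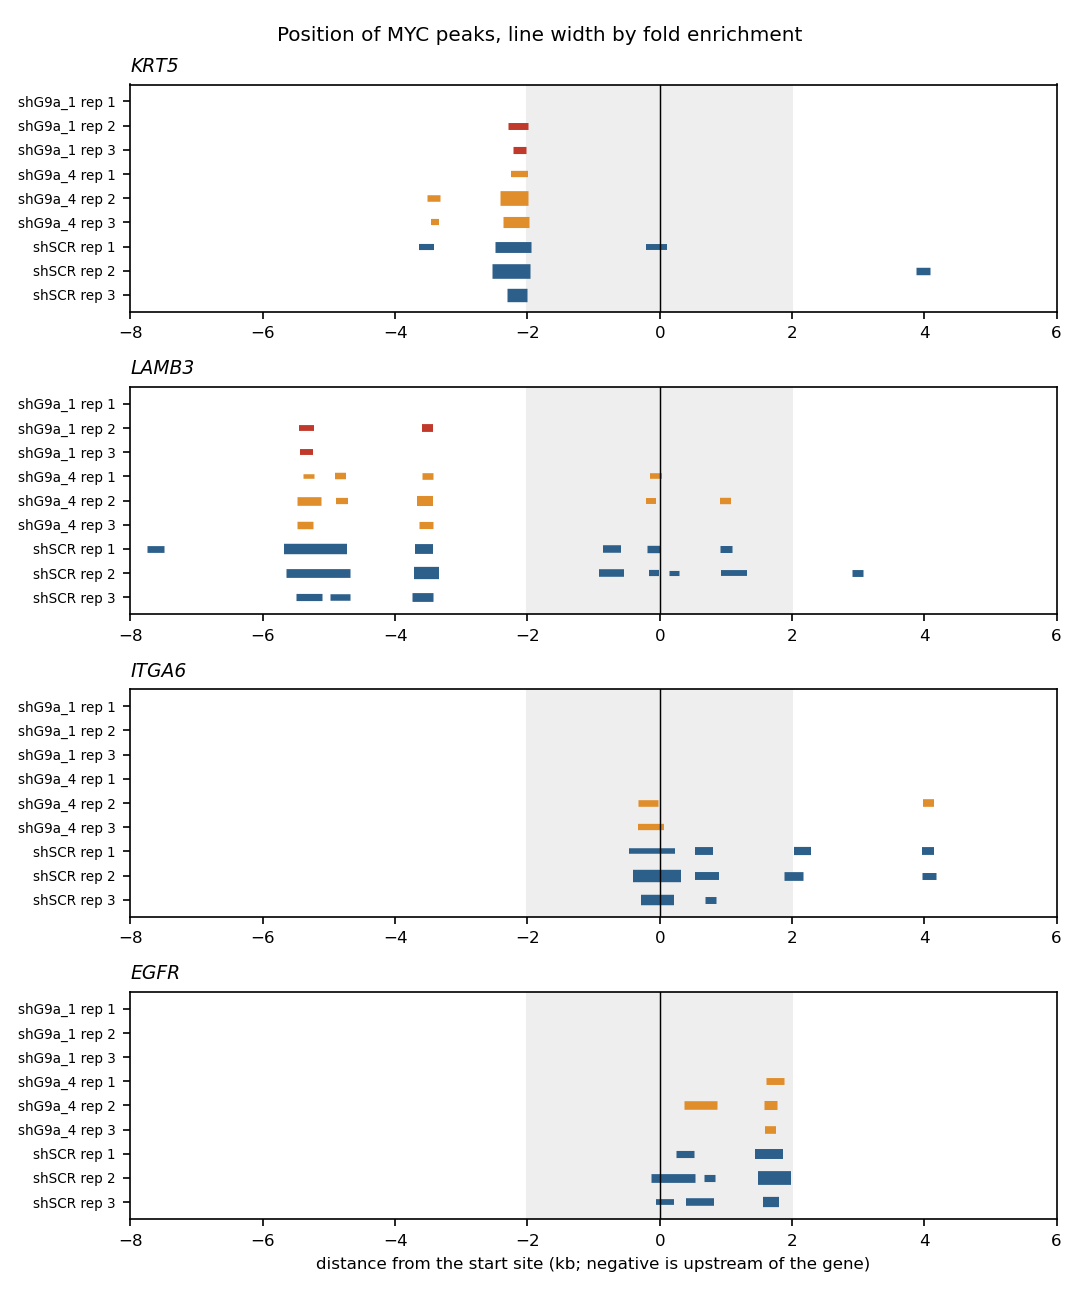
Peaks of the 9 libraries (rows, shG9a_1 above shG9a_4 above shSCR) from 8 kb upstream to 6 kb downstream of the start sites of KRT5, LAMB3, ITGA6 and EGFR; line width grows with fold enrichment and the grey band is the promoter, 2 kb either side. The KRT5 peak stood at the upstream edge of the band in 8 libraries, while the LAMB3, ITGA6 and EGFR bands were empty in all shG9a_1 rows.

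EGFR had a pair of promoter regions, and both were absent from all shG9a_1 lists. The region 1436 to 1987 bp downstream of the start (chromosome 7, 55088161 to 55088712) had a fold of 5.76, 8.35 and 6.66 with shG9a_4, and 9.46, 14.02 and 9.79 with shSCR. All shG9a_4 values lay below all shSCR values, with means of 6.92 ± 1.31 with shG9a_4 and 11.1 ± 2.55 with shSCR (SD, n = 3 each). For this value alone, an exact two-sided permutation test of 3 against 3 cannot give a p below 0.1. The share of all regions with such a gap in fold was not computed. This holds also for the shG9a_1 values below shSCR at KRT5 and LAMB3, so none of these gaps is shown to be particular to the gene. The merged region from 138 bp upstream to 865 bp downstream of the EGFR start had 7.79 in shG9a_4 replicate 2, and 6.03, 8.01 and 6.58 with shSCR. The shG9a_4 value lay inside the shSCR range, but the region joins peaks at different positions. The shG9a_4 peak lay 372 to 865 bp downstream of the start. Only shSCR replicates 2 and 3 had a peak over the start itself, with folds of 8.01 and 4.41.

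All 3 shSCR libraries called 10 of the 40 regions (25.0%), against 32.9% of all 43222 regions of the lists. Of these 10, 7 were at promoters, and their median strength percentile was 56.7, against 66.9 for all 14209 regions shared by the shSCR libraries. The ITGA6 region 0.7 kb downstream was the 1 called in none of the 6 shG9a libraries, against a background of 9.49% of the 14209. Another 6 were called in 1 to 4 of the 6 shG9a libraries (background 53.6%), and 3 were called in at least 5 (background 36.9%). Those 3 were the regions of KRT5 2.2 kb upstream, KRT18 at its start and LAMB3 5.2 kb upstream. A single library called 16 of the 40 regions, 10 of them in shSCR replicate 2, which had the longest list. Exactly 1 shSCR library, with or without shG9a calls, called 17 of the 40 (42.5%, against 40.6% of all regions). In no shG9a library were 23 of the 40 called (57.5%, against 49.4% of all regions). Regions outside promoters that are not described above numbered 13, of which 4 belong to KRT5, 4 to ITGA6, 3 to LAMB3, 1 to CDH1 and 1 to ITGB4. All 13 had an shSCR call, which 4.55% of all regions lacked, but none was called in all shSCR libraries. An shG9a_4 call was present in 2 of the 13 and an shG9a_1 call in 0. Of all regions, 49.4% had no shG9a call. The share among regions not called in all shSCR libraries was not computed, so these counts only describe the 13. The folds of the 13 ran from 3.51 to 7.51.

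The calls are given for each hairpin below, and the difference between the hairpins was not tested. Regions called with shG9a_4 and not with shG9a_1 numbered 11 of 40 (27.5%, against 16.4% of all regions), and the reverse held for 1 (2.5%, against 6.52%). Of the 10 regions shared by the shSCR libraries, 5 had no call with shG9a_1 (background 25.3%), 2 were called in 1 of its libraries (27.2%) and 3 in at least 2 (47.5%). With shG9a_4, 1 had no call (background 13.5%), 3 were called in 1 library (17.7%) and 6 in at least 2 (68.8%). The EGFR region 1.7 kb downstream was called in all 3 shG9a_4 libraries and in no shG9a_1 library, which 2.08% of the 14209 shared regions were. Within its own class of strength, the eighth of 10, that share was 0.985%. shG9a_1 replicate 1 held 113 peaks in all and none near these genes, so each shG9a_1 absence rests on replicates 2 and 3. Over the 5 shG9a libraries without it, 1 of the 10 regions had no call (background 9.49%), 5 were called in 1 to 3 libraries (38.3%) and 4 in at least 4 (52.2%).

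The number of peaks in each 40 kb window was compared between the 6 libraries of both G9a hairpins and the 3 shSCR libraries. It was lower in the shG9a mean at 10 of 11 start sites, as in 96.3% of 20700 non-overlapping 40 kb windows of the genome that held an shSCR peak, and KRT14 had 0 in every library. For ITGA6 the window held 0 peaks in all shG9a_1 libraries, 0, 2 and 1 in the shG9a_4 libraries, and 5, 6 and 2 in the shSCR libraries. The groups met at 2 peaks, in shG9a_4 replicate 2 and shSCR replicate 3. The mean was 0.500 ± 0.837 with shG9a (n = 6) and 4.33 ± 2.08 with shSCR (SD, n = 3; exact two-sided permutation p = 0.0476). For EGFR the window held 0 in all shG9a_1 libraries, 1, 2 and 1 with shG9a_4, and 2, 3 and 3 with shSCR, and again the groups met at 2. Its mean was 0.667 ± 0.816 with shG9a (n = 6) and 2.67 ± 0.577 with shSCR (SD, n = 3; exact two-sided permutation p = 0.0476). Unadjusted p-values under 0.05 with fewer peaks in shG9a, as at these 2 of 11 sites, were found in 9.88% of the 20700 windows. Among the 3564 of them with at least 7 shSCR peaks, a minimum chosen after seeing the data, the share was 30.8%. The smallest p that 84 splits of 9 libraries allow is 0.0238, and no correction over the 11 sites was made. For shG9a_1 alone against shSCR, ITGA6, EGFR, LAMB3 and ITGB4 each reached the exact permutation p of 0.1 that is the smallest 3 against 3 libraries allow. For shG9a_4 alone the exact permutation p was 0.2 for ITGA6, 0.2 for EGFR, 0.4 for LAMB3 and 0.3 for ITGB4. The tests of both hairpins and of shG9a_1 alone include shG9a_1 replicate 1, which listed 113 peaks in all and none in these windows.

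The other windows did not pass with all libraries and the limits as given. LAMB3 averaged 2.33 ± 1.86 peaks with shG9a and 5.67 ± 2.52 with shSCR (exact permutation p = 0.0952), and ITGB4 0.333 with shG9a and 2.00 with shSCR (exact permutation p = 0.0714). CDH1 averaged 0.500 with shG9a and 2.00 with shSCR (exact permutation p = 0.0952), and KRT5 1.17 with shG9a and 3.00 with shSCR (exact permutation p = 0.143). For KRT18, CDH3 and the TP63 starts the exact permutation p lay between 0.143 and 0.667. In none of the 11 windows did every shG9a library lie below every shSCR library, which 7.56% of the 20700 windows did. The ITGA6 and EGFR results did not hold in lists of equal length, where the differences were -0.267 and -0.2 peaks (exact permutation p = 1 for both). Leaving out any 1 library other than shG9a_4 replicate 2 also took both past 0.05, to an exact permutation p between 0.0714 and 0.143. With an shSCR library left out, 0.0714 is the smallest exact permutation p possible, so those omissions could not have stayed under 0.05. Limits of at least 5 on the −log10 q-value or the fold took EGFR to an exact permutation p of 0.0714. For ITGA6 the exact permutation p was 0.0238 at the q limit and 0.0476 at the fold limit. With windows of 10 kb or 50 kb either side, the exact permutation p stayed at 0.0476 for both genes. How many of all windows pass at these settings was not computed. Other settings brought windows under 0.05 that were not so before. The exact permutation p was 0.0238 for LAMB3 at the q limit of 5, 0.0238 for CDH1 and 0.0476 for ITGB4 with windows of 50 kb either side, and 0.0357 for ITGB4 without shG9a_4 replicate 2.

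**Figure D3:**
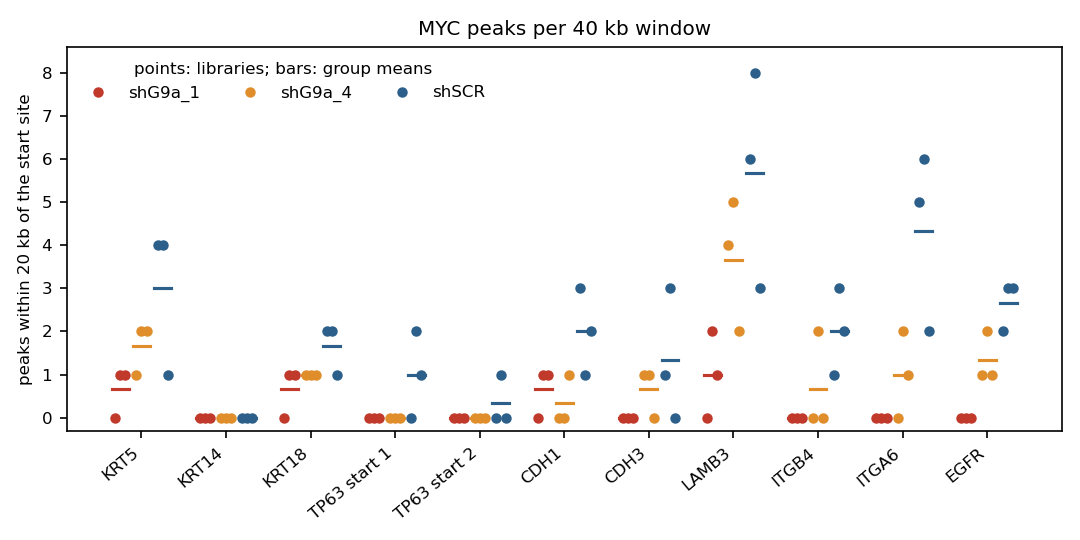
Peaks within 20 kb of each of the 11 start sites (points are libraries, bars are group means; shG9a_1, shG9a_4 and shSCR from left to right). ITGA6, EGFR, ITGB4, CDH3 and both TP63 starts had 0 peaks in all shG9a_1 libraries, and KRT14 had 0 in all 9 libraries.

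Position within the lists was compared at equal length, in the top 11168 peaks of the 8 libraries other than shG9a_1 replicate 1. Of the genes' 40 regions, 5 and 3 stood in these top lists with shG9a_1, 7, 6 and 7 with shG9a_4, and 5, 5 and 6 with shSCR. Of all 43222 regions, 10013 to 10987 stood in each top list. For shG9a_4 replicate 1, whose whole list this is, the shares were 17.5% of the 40 and 23.2% of all regions. In every shSCR library, 4 regions stood there, and a missing region was given rank 11169. The KRT5 region 2.2 kb upstream had a mean rank of 4041 ± 2229 with shG9a (n = 5) and 3385 ± 886 with shSCR (SD, n = 3; exact permutation p = 0.643). The LAMB3 regions 3.5 and 5.2 kb upstream had 5687 ± 3109 and 7284 ± 2896 with shG9a, and 4607 ± 1070 and 6965 ± 3100 with shSCR (exact permutation p = 0.857 and 1). For the LAMB3 region 5.2 kb upstream, these ranks come from peaks at different positions and do not compare a single site. The EGFR region 1.7 kb downstream ranked 11169 in both shG9a_1 libraries, 7860, 5757 and 5993 with shG9a_4, and 6347, 4197 and 4741 with shSCR. Its shG9a_4 ranks overlapped those of shSCR, and its shG9a mean was weaker by 3295 places (exact permutation p = 0.107). The smallest p that 56 splits allow is 0.0357. A weaker rank in every shG9a library than in every shSCR library was found in 0 of the 4, against 5.83% of 6444 such regions, and a stronger one in 0 of the 4, against 1.47%.

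Summit height was compared at the 3 regions that all 8 libraries called, those of KRT5, KRT18 and LAMB3 5.2 kb upstream. It is the number of fragments piled up at the summit, recovered from the deposited fold and p-value and divided by the library's background per position. Height relative to the library's median over the 5245 regions called in all 8 libraries was tested with limma. At KRT5 it was 34.3 ± 11.8 times background with shG9a (n = 5) and 53.3 ± 5.46 with shSCR (SD, n = 3). Relative to the library medians it was 1.09 ± 0.159 with shG9a and 0.949 ± 0.0119 with shSCR, a log2 difference of 0.19 (SE 0.19, limma adjusted p = 0.822). At KRT18 the relative height was 0.663 ± 0.207 with shG9a and 0.458 ± 0.0806 with shSCR, a log2 difference of 0.50 (SE 0.22, limma unadjusted p = 0.0270, adjusted p = 0.478). At LAMB3 it was 0.863 ± 0.211 with shG9a and 0.919 ± 0.178 with shSCR, a log2 difference of -0.10 (SE 0.21, limma adjusted p = 0.941). The LAMB3 heights come from summits at different positions in the merged region, so they do not compare a single site. An adjusted p of 0.05 in limma was passed by 0 of the 3 regions, and an unadjusted p under 0.05 was reached by 1 of the 3, KRT18. Over all 5245 regions 9.25% were under 0.05 unadjusted, 5.41% being higher in shG9a, and at the adjusted threshold 0.0191% were called lower and 0.0953% higher. Without the centring on library medians, the median region was lower by 0.88 on the log2 scale in shG9a and 80.6% were called lower. On that scale KRT5 differed by -0.69 (limma adjusted p = 0.0460), LAMB3 by -0.98 (adjusted p = 0.00864) and KRT18 by -0.38 (adjusted p = 0.257). Heights rest on few fragments: member peaks had 5 to 31 at the summit, with a median of 12, whose exact 95% Poisson interval of 6.20 to 21.0 covers counting error only.

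**Figure D4:**
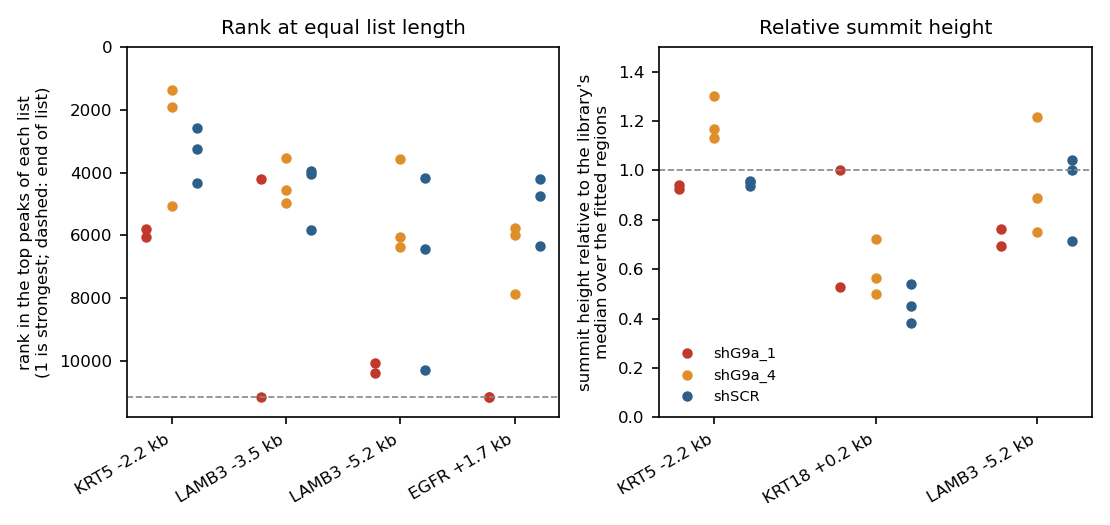
Left, rank by q-value in the top 11168 peaks of each list for 4 regions (axis inverted, dashed line the list's end); right, summit height relative to the library median (dashed line 1) for 3 regions. Points are libraries, with shG9a_1, shG9a_4 and shSCR from left to right; the EGFR region lay past the end of both shG9a_1 lists.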

How the data were processed

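MYC ChIP-seq (N262) was read from 9 narrowPeak lists, 3 biological replicates each for shG9a_1, shG9a_4 and shSCR. Per the submitters' processing notes the tools, listed with no role or order, were MACS2 2.1.0, Picard 2.7.1, STAR 2.5.2a and SAMtools 1.3. The notes name builds GRCh37 and hg19. The sources used here do not give settings or how the inputs were used. The deposited lists hold the authors' peak positions, score, fold enrichment (a ratio over background), −log10 p-value and −log10 q-value. Peaks off chromosomes 1 to 22 and X (192) were left out. Peaks overlapping by at least 1 bp were merged into regions. Reads per library are unknown; the background was 0.361 to 1.03 fragments per position. Summit pileups were recovered as whole numbers, with a tolerance of 0.001 on the −log10 p-value.

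Computed here were calls per region, exact permutation tests on peaks per window and ranks (all splits listed in Python 3.11.15), and limma 3.58.1 (R 4.3.3) on log2 height with Benjamini-Hochberg adjustment over all 5245 regions. P-values measure the spread between these libraries. Where both G9a hairpins form one group, that spread joins replicates with differences between the hairpins. In the window tests it also includes shG9a_1 replicate 1. Scripts were tested on simulated data. Alternatives were the q-value, fold and window limits, equal list lengths, uncentred heights, each hairpin alone and each library left out. The members and lists were chosen with earlier results of these data known. All 10 genes are named, with values for promoter regions and for the strongest regions shared by the shSCR libraries. No hg19 annotation or genome was used, so other gene lists and motifs in the regions were not analysed here.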

Additional observations from a re-analysis of the deposited data

How the results depend on the processing

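At equal list lengths the difference in promoters called was -0.2, against -3.67, and 4 regions were shared by the shSCR libraries, 0 of them without and 1 with only some shG9a calls; window differences turned positive for KRT5 (0.2), KRT18 (0.267), CDH1 (0.4), CDH3 (0.2) and LAMB3 (0.2). With 50 kb windows, 24 regions were shared by the shSCR libraries. Of these 24, 2 had no shG9a call (background 9.49%), 15 some (53.6%) and 7 at least 5 (36.9%). At that width 1 window did not overlap between groups, as did 11.3% of all 100 kb windows. With −log10 q of at least 5, or a fold of at least 5, regions with at least 5 shG9a calls numbered 1, and 2 windows did not overlap at the q limit, as did 6.61% of all windows. Summit heights passed at 2 regions when uncentred; KRT5 was -0.69 uncentred, -0.12 with the authors' fold and -0.042 for shG9a_1 alone, KRT18 was -0.38 uncentred, and LAMB3 5.2 kb upstream was 0.11 with the fold and 0.022 for shG9a_4 alone. The cause of these changes was not tested. The share of all regions in each state was not computed at equal list lengths or at the q and fold limits.

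With each library left out in turn, shSCR-shared regions numbered 10 to 18 (18 without shSCR replicate 3). Those with no shG9a call numbered 1 to 6: 3 without shG9a_4 replicate 2, then 3, 2 and 6 with shSCR replicates 1, 2 and 3 left out. For all regions, the share in this state was not computed with these 4 libraries left out in turn. Windows that did not overlap numbered 0 to 4: 3 without shG9a_4 replicate 2, and 2, 1 and 4 without shSCR replicates 1, 2 and 3. Of all 40 kb windows with an shSCR peak, 11.5%, 11.8%, 10.9% and 25.1% did not overlap under the same 4 omissions. Regions of weaker rank in every shG9a library numbered 0 to 2 (2 without shSCR replicate 1), and the share over all regions was not computed there. Rank differences ran from -291 to 1697 for LAMB3 3.5 kb upstream, and from -1081 to 1984 for LAMB3 5.2 kb upstream. With the replicate number as a block, the exact permutation p of ITGA6 and EGFR was 0.0741, the smallest it allows. The labels do not pair the samples. Deviations of summit height from the group means, over 5245 regions in the 8 libraries without shG9a_1 replicate 1, correlated at -0.021 to 0.155 in 7 same-numbered pairs and -0.145 to 0.0819 in 14 others. The 2 shG9a_1 libraries left deviate from their mean by equal and opposite amounts. Their correlations with any other library therefore differ only in sign, and the pairs are not separate. In all 5245 regions, 1 was lower and 5 higher; across libraries left out these were 0 to 4 and 2 to 18, and 4225 were lower when uncentred. Short lists and 5 to 31 fragments a summit limit what an absent call shows.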

Other observations

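Of the nearest regions beyond the 20 kb windows, 1 on each side of each of the 11 start sites, 6 were called in all 3 shSCR libraries. Of all 43222 regions, 32.9% were so called. The region 20.6 kb upstream of ITGB4 was called in 1 shG9a_1, 3 shG9a_4 and 3 shSCR libraries. Its highest fold was 11.5, against 8.11 in the ITGB4 window. That 20.9 kb upstream of LAMB3 was called in 1 shG9a_1, 2 shG9a_4 and 3 shSCR libraries, with a fold of up to 7.26. The region 33.0 kb downstream of TP63 start 1 was called in 1 shG9a_1, 1 shG9a_4 and 3 shSCR libraries, with a fold of up to 8.13, whereas neither TP63 window held a region that all shSCR libraries called. Regions 53.4 kb upstream of CDH3 and 51.3 kb upstream of EGFR were called in no shG9a library and in 3 shSCR libraries, with folds of up to 8.06 and 8.998. Among all regions shared by the shSCR libraries, 9.49% had no shG9a call. The region nearest upstream of ITGA6, at 173.9 kb, was called in 2 shG9a_4 and 3 shSCR libraries, with a fold of up to 10.9. Which gene any of these peaks acts on was not tested.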
